A study of Mus musculus with 36 samples.

Results

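The 10 genes described here encode regulators of mitochondrial biogenesis and of mitochondrial DNA transcription: Ppargc1a, Ppargc1b, Pprc1, Nrf1, Gabpa, Esrra, Tfam, Tfb1m, Tfb2m and Polrmt. They were chosen by name, with earlier results of these data known. They are 10 of the 56980 genes in the count table, and all 10 passed the filter on low counts, which left 25601 genes for testing. PolyA-enriched brain RNA was sequenced from 36 mice aged 37 to 45 days, which carried a knockout (KO) of Ndufs4, a subunit gene of respiratory complex I, or were wild type (WT). All had been gavaged for 3 days, either with CP2, a complex I inhibitor according to the series title, or with vehicle, so that handling was shared by every group. The title of each sample also carries a letter, F or M, and the 8 groups are named by genotype, treatment and letter. The groups KO vehicle F, KO CP2 F, WT vehicle F, WT CP2 F, KO CP2 M and WT CP2 M held 5 samples each, and KO vehicle M and WT vehicle M held 3 each. How the knockout allele was made, and whether the samples of a group shared litters, is not given in the sources used here. P-values therefore measure the spread between these samples.

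Mitochondria are built from proteins encoded in the nucleus and in mitochondrial DNA, and a small set of nuclear regulators acts on both genomes. The coactivators Ppargc1a (PGC-1 alpha), Ppargc1b (PGC-1 beta) and Pprc1 (PRC) bind no DNA themselves and work through factors such as Nrf1, Gabpa and Esrra, which sit at promoters of respiratory chain genes. Those factors also act on the genes of the mitochondrial transcription machinery, Tfam, Tfb2m and Polrmt, and Tfb1m, which modifies the small mitochondrial ribosomal RNA. In brain, Ppargc1a is known for its high level in fast-firing interneurons.

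Promoter sequence shows which of these genes carry the binding motifs of the others. RefSeq windows for GRCm38.p6 ran from 250 bases before to 50 after each gene's start, and 9 of the 10 genes matched one. Both strands were searched for the NRF1 core GCGCATGC, which 2.71% of 32851 promoters of this length held, and for a longer NRF1 form (GCGCA, any base, GCGC), which 4.6% held. They were also searched for the ETS motif CCGGAAG bound by GABP (8.86%) and for the half-site AAGGTCA bound by ERR alpha (4.72%). A further motif (ACTACA, any 2 bases, TCC), bound by ZNF143 and held by 1.98% of promoters, was added after the sequences had been read. The NRF1 forms can overlap each other, and a match is a description of the letters and not a measured binding site. The windows below show the Esrra, Pprc1 and Polrmt promoters, whose genes were lower in KO groups, with motif letters in capitals. Positions are counted from the start site. The stretches are chr19:6921819-6921908 on the minus strand (-100 to -11) for Esrra, chr19:46056389-46056528 on the plus strand (-150 to -11) for Pprc1, and chr10:79746592-79746731 on the minus strand (-150 to -11) for Polrmt.
Esrra: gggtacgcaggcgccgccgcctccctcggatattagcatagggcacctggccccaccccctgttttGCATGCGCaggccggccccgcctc
Pprc1: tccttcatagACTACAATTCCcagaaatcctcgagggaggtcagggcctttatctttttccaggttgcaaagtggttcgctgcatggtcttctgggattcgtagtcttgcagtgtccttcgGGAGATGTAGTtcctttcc
Polrmt: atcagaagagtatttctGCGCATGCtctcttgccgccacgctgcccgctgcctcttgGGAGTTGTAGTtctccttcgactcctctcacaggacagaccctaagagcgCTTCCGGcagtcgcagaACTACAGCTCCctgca

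The Esrra window held 1 NRF1 core, from -34 to -27. Pprc1 held 2 matches to the ZNF143 motif, from -140 to -130 and from -29 to -19, and no match to the NRF1, ETS or ERR motifs. Polrmt held an NRF1 core starting at -133, an ETS motif starting at -43, and ZNF143 matches starting at -93 and -26. Its start site also lay within a pair of overlapping long NRF1 matches, from -6 to 4 and from 1 to 10. Both stand in capitals in the stretch chr10:79746567-79746596, minus strand, printed next. The last 3 lines show the single ETS match of Tfam (chr10:71238072-71238101, minus strand) and of Gabpa (chr16:84835020-84835049, plus strand), and the NRF1 core of Tfb2m (chr1:179546245-179546274, minus strand). None of the 9 windows held the ERR half-site.
Polrmt start: ctgcaggcgGCGCGTGCGCGTGCGCactgc
Tfam: ctgccgcggaCCGGAAGtccgggcttccca
Gabpa: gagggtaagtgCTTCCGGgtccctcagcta
Tfb2m: ctaggtcgttcGCATGCGCcattcgtaatg

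Gene counts summed to 46124548 to 88559920 per sample, and the share of reads outside annotated genes ranged from 5.09% to 13.2%. Levels are CPM, read counts scaled to a common library total. Ndufs4 RNA stayed detectable in KO, at 27.44 to 39.14 CPM against 38.87 to 62.75 CPM in WT, and each KO group lay below its matched WT group without overlap. All 49 marker genes of 11 brain and blood cell types were detected in every sample. Xist, the RNA of the inactive X, ran from 438.6 to 797.5 CPM in F samples, where Y-linked Ddx3y was at most 0.2141 CPM. In M samples Ddx3y ran from 61.84 to 84.46 CPM, so the letters go with female and male. The design text names cortex and hippocampus, so samples may hold them in different shares. In such bulk RNA, fewer cells of a type and less RNA per cell cannot be told apart. 3 libraries stood apart, L266 and L291 of KO CP2 M and L303 of WT vehicle M. L266 and L303 had a share of ENSMUSG00000119584 far below the other M samples, and L291 held both Xist (47.26 CPM) and Ddx3y (80.82 CPM). Results for the regulators that changed without these 3 are given both ways. Results for markers, pathway lists and correlations were not computed without them. The share of ENSMUSG00000119584 ran with the letter, from 3.261% to 6.014% in M apart from L266 (1.015%) and L303 (1.603%). In F it ran from 0.8563% to 1.777%, apart from L246 of KO vehicle F at 3.204%, which was kept.

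All 10 regulators were expressed in every sample, at levels that differed more between genes than between groups. Per kilobase of exon, Esrra stood highest with a mean of 11.6 CPM per kb over 36 samples. Ppargc1a followed at 7.80, Tfam at 7.19, Polrmt at 5.86, Tfb2m at 5.74 and Gabpa at 4.45 CPM per kb. Pprc1 had 3.29, Ppargc1b 2.98, Nrf1 1.58 and Tfb1m 1.22 CPM per kb. Neighbours in this order overlapped in their sample ranges, except Ppargc1b and Nrf1, where Ppargc1b was higher in 36 of 36 samples. Polrmt exceeded Tfb2m in only 20 of 36 samples, so those levels did not differ beyond their spread. The place of Nrf1 rested on its exon length: with the longest transcript in place of all exons it moved from the ninth place to the seventh. Across samples, Pprc1 varied most, with a coefficient of variation of 16.8%, and Tfam least, with 7.98%.

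**Figure D1:**
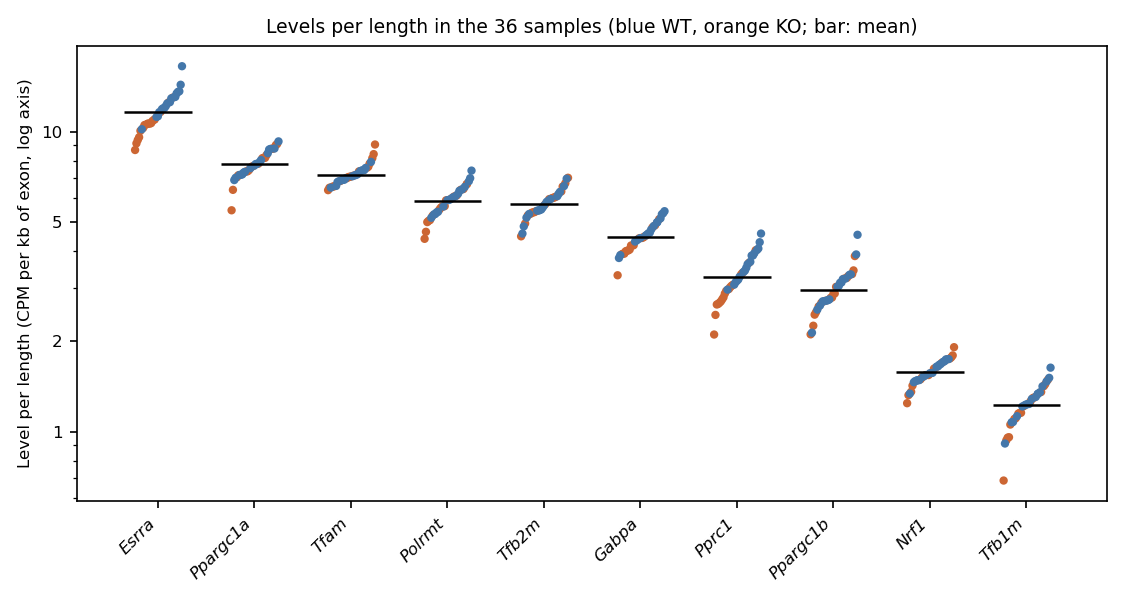
Level per kilobase of exon (CPM per kb, log axis) of the 10 regulators in the 36 samples, ordered by mean; points are samples (blue WT, orange KO) and bars are means. Esrra has the highest mean, 11.6, and Tfb1m the lowest, 1.22, and neighbouring genes overlap apart from Ppargc1b and Nrf1.

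**Figure D2:**
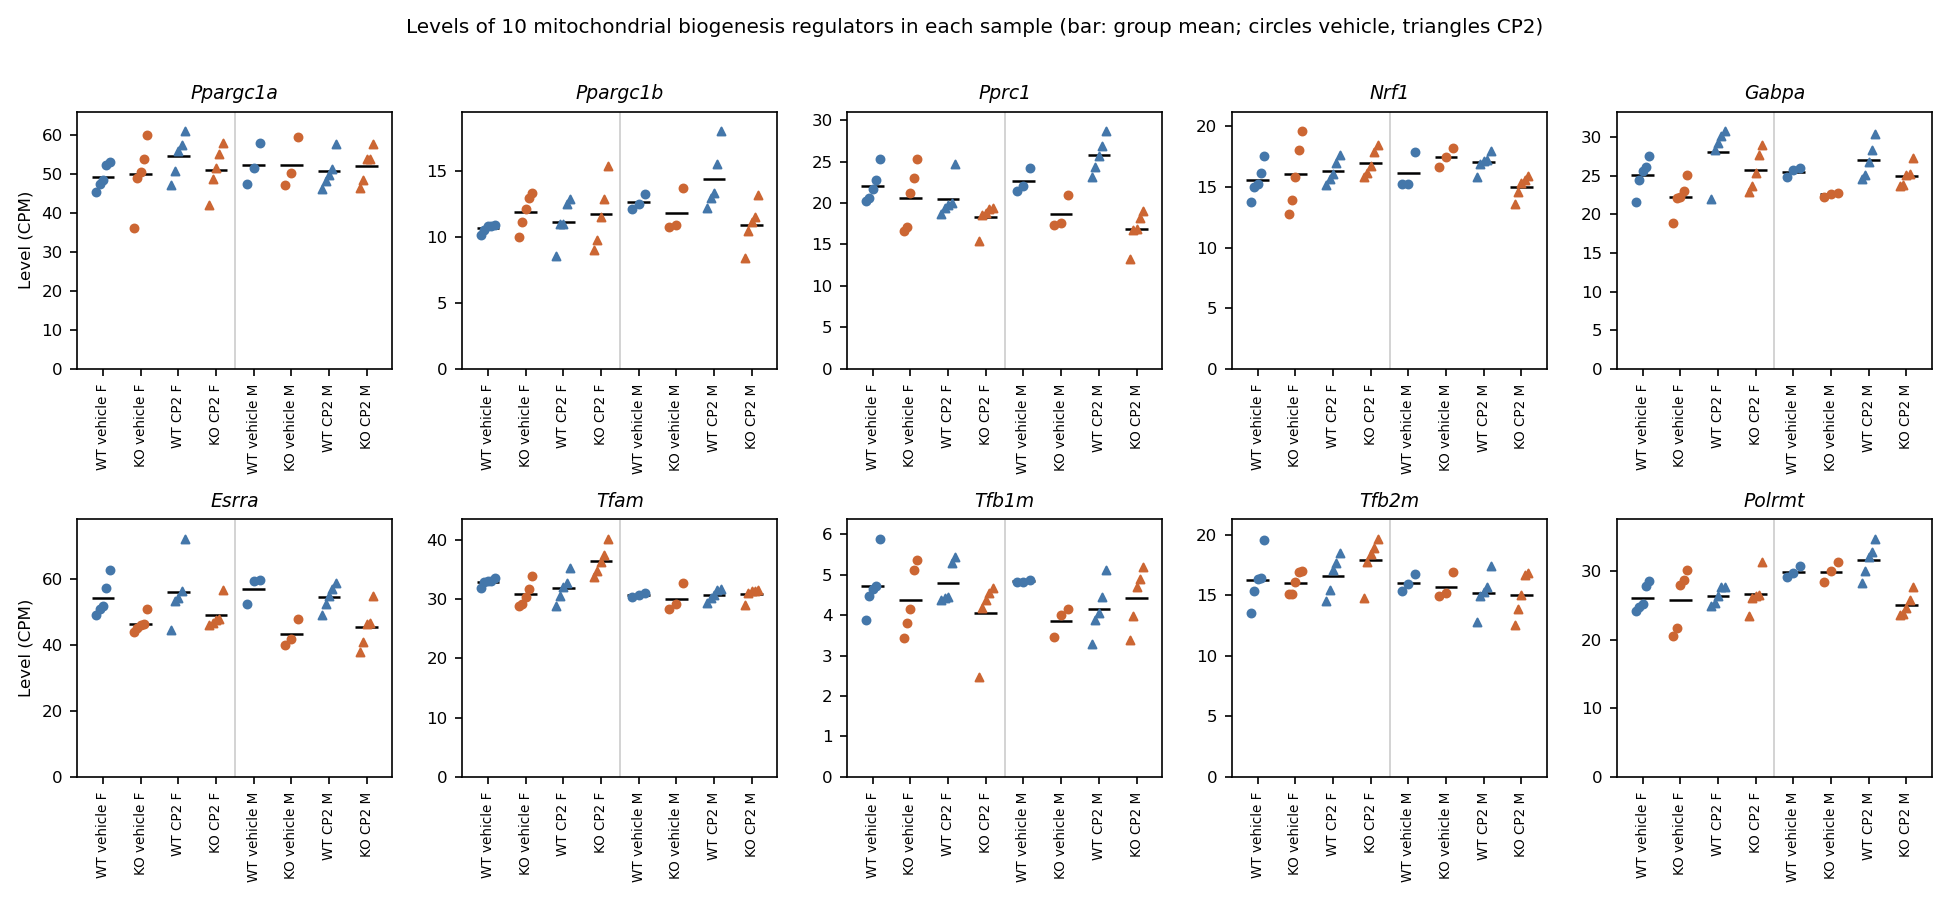
Level (CPM, linear axis from 0) of each regulator in each sample of the 8 groups; blue is WT, orange is KO, circles are vehicle, triangles are CP2 and bars are group means. For Esrra, Pprc1 and Gabpa the KO mean lies below the WT mean in all 4 pairs of groups, while Ppargc1a stays between 36.03 and 61.13 throughout.

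The first question was whether the knockout changed these genes. Averaged over the 4 pairs of KO and WT groups, a comparison added after the others had been seen, 3 of the 10 regulators fell and 0 rose. They were Esrra, Pprc1 and Gabpa, while 16.2% of all tested genes were called in that comparison and 8.61% were called lower. The median log2 change over the 10 genes was -0.075, against 0.019 over all genes, and 7 of 10 had a negative sign. A gene is called where the adjusted p of edgeR's quasi-likelihood test, with Benjamini-Hochberg adjustment over all genes, is under 0.05. The members' share is above the background, but 3 genes are few, and no test of the list as a list was made.

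Among the coactivators, Ppargc1a, the best known of the family, was not called in any comparison. Its 18 KO samples ran from 36.03 to 59.96 CPM with a median of 51.05, and its 18 WT samples ran from 45.43 to 61.13 CPM with a median of 51.08. The groups overlapped throughout, and the log2 difference over the 4 pairs was -0.009 with a 95% interval from -0.12 to 0.097. On the linear scale that interval runs from a fold of 0.923 to a fold of 1.07. With vehicle the log2 difference was 0.009 (SE 0.079), and with CP2 it was -0.028 (SE 0.069).

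Pprc1, the coactivator known as a growth-regulated relative of Ppargc1a, was lower in KO, most clearly with CP2. In CP2 M, the KO samples had 13.24, 16.74, 16.9, 18.13 and 19.04 CPM, and the WT samples had 23.13, 24.28, 25.62, 26.88 and 28.73 CPM. Every KO sample there lay below every WT sample. In CP2 F, the KO samples had 15.39, 18.5, 18.77, 19.24 and 19.39 CPM, and the WT samples had 18.69, 19.42, 19.78, 19.99 and 24.71 CPM. These ranges overlapped, with the lowest WT sample below 3 KO samples. Over F and M with CP2, Pprc1 fell to 0.763 of the WT level, a log2 change of -0.39 (SE 0.075, adjusted p = 0.000405). In CP2 M alone it fell to 0.653 of the WT level (log2 -0.61, SE 0.106, adjusted p = 0.00014). In CP2 F alone the log2 difference was -0.17 (SE 0.105, adjusted p = 0.463).

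With vehicle, Pprc1 pointed the same way but was not called. In vehicle M, KO samples had 17.33, 17.62 and 20.94 CPM and WT samples 21.41, 22.1 and 24.26 CPM, which did not overlap. The share of all genes that separate in this way was not counted, here or for the other regulators. Such a separation therefore only describes these samples. In vehicle F, KO samples had 16.67, 17.07, 21.22, 22.96 and 25.28 CPM and WT samples 20.19, 20.61, 21.63, 22.72 and 25.33 CPM, which overlapped widely. The averaged log2 difference with vehicle was -0.19 (SE 0.086, adjusted p = 0.191). Over the 4 pairs Pprc1 was called at -0.29 (SE 0.057, adjusted p = 0.000351), and the genotype by CP2 interaction was not called (log2 -0.20, SE 0.114, adjusted p = 0.42). The CP2 call and the call over the 4 pairs held in every alternative analysis and with each sample left out in turn. Pprc1 shares 177 exonic bases with Ldb1 on the other strand, and whether counting used strand is not given in the sources used here.

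Ppargc1b, the other PGC-1 coactivator, was lower in KO only in CP2 M among the comparisons that were called. Its KO samples there had 8.417, 10.43, 11.17, 11.52 and 13.16 CPM, and its WT samples had 12.2, 12.92, 13.34, 15.54 and 18.07 CPM. A single KO sample overlapped the WT range. The log2 change was -0.40 (SE 0.131, adjusted p = 0.0448). The call was lost in 4 of 9 alternative analyses and in 6 of 10 fits that left out a sample, among them the removal of the libraries that stood apart (log2 -0.32, adjusted p = 0.252). In CP2 F, KO samples ran from 8.995 to 15.35 CPM and WT samples from 8.527 to 12.85 CPM, with a log2 difference of 0.068 (SE 0.131). The F minus M difference of the genotype effect with CP2 was 0.47 (SE 0.185), with an adjusted p of 0.22, so the 2 letters were not shown to differ.

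Among the DNA-binding factors, Esrra (ERR alpha), an orphan nuclear receptor that drives oxidative metabolism genes, was the regulator called lower in KO both with vehicle and with CP2. In vehicle M, KO samples had 40.06, 42.0 and 48.13 CPM and WT samples had 52.46, 59.48 and 59.74 CPM, without overlap. In vehicle F, KO samples had 44.14, 45.12, 46.11, 46.6 and 50.96 CPM and WT samples had 49.09, 50.89, 52.07, 57.27 and 62.81 CPM. The highest KO sample there exceeded the lowest 2 WT samples. With vehicle, F and M averaged, Esrra fell to 0.806 of the WT level, a log2 change of -0.31 (SE 0.077, adjusted p = 0.0101). With vehicle or in CP2 F, no single pair gave a call, with 0 of 10 regulators called in vehicle F (4.96% of all genes called), 0 of 10 in vehicle M (0.516%) and 0 of 10 in CP2 F (2.00%). Over both letters with vehicle, Esrra was the only 1 of the 10 regulators called, in which 6.67% of genes were called and 3.80% were called lower, so the count is near the background.

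With CP2, the KO samples of Esrra had 46.25, 46.81, 47.61, 48.11 and 56.89 CPM in F and 38.08, 41.12, 46.59, 46.63 and 54.9 CPM in M. The WT samples had 44.68, 53.43, 54.46, 56.58 and 72.44 CPM in F and 49.31, 52.65, 54.97, 57.06 and 58.78 CPM in M. Most WT samples lay above most KO samples, and the ranges overlapped in both letters. The averaged log2 change with CP2 was -0.23 (SE 0.066, adjusted p = 0.0185), a fold of 0.853. Esrra and Pprc1 were the 2 of 10 regulators called with CP2, both lower, where 11.6% of genes were called and 6.07% were called lower.

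The vehicle call of Esrra held in 15 of 16 fits that left out a sample (log2 -0.35 to -0.28) and the CP2 call in 19 of 20 (log2 -0.27 to -0.18), while its call over the 4 pairs (log2 -0.27, SE 0.051, adjusted p = 0.000196) held in all alternatives and leave-outs run. With vehicle it was lost without KO vehicle M sample L322 (adjusted p = 0.0506). It was lost too once the fit held each sample's share of reads outside annotated genes (log2 -0.25, adjusted p = 0.173). That share ran from 6.19% to 11.7% in KO vehicle F against 5.09% to 7.04% in WT vehicle F, and from 11.3% to 13% in KO vehicle M against 9.48% to 11.6% in WT vehicle M. With CP2 the call was lost without WT CP2 F sample L228, the 72.44 CPM sample (adjusted p = 0.0547), and without the 3 libraries that stood apart (log2 -0.20, adjusted p = 0.0742). In L228 the striatal markers summed to 888.9 CPM, against 190.2 to 625.8 CPM in the rest of WT CP2 F. Its dentate gyrus markers summed to 148 CPM, against 184.6 to 230.9 CPM. Over all samples the striatal sum ran from 156 to 969.4 CPM, and its part was not tested. Red cell RNA also moved with genotype under vehicle, with all 3 globin genes called lower in KO, by log2 -1.90 to -2.03. Their summed level ran from 67.92 to 120.1 CPM in KO vehicle F against 80.57 to 358.7 in WT vehicle F. In M it ran from 35.76 to 79.67 CPM in KO against 105.9 to 604.7 in WT. Under vehicle, Tmem119, 1 of the 4 microglia markers, was called lower in KO (log2 -0.34, adjusted p = 0.0278), and Wfs1, 1 of the 6 hippocampal CA markers, higher (log2 0.56, adjusted p = 0.00811). The microglia markers summed to 157.1 to 232.6 CPM in KO vehicle F, 190.2 to 228.8 in WT vehicle F, 186.9 to 223.6 in KO vehicle M and 194.4 to 205 in WT vehicle M. The CA markers summed to 280.7 to 344.8 CPM in KO and 297.4 to 355.6 in WT in F, and to 337.6 to 395.6 in KO and 255.4 to 270.4 in WT in M. Their mean log2 score, which weights each gene equally, ran lower in KO in F, from 4.57 to 4.92 against 4.99 to 5.43. In M the score ran higher in KO, from 4.94 to 5.24 against 4.59 to 4.77. With the CA score in the fit, Esrra with vehicle stood at log2 -0.31 (adjusted p = 0.00705). The part of red cells and microglia in the vehicle results was not tested. Esrra shares 73 exonic bases with Trmt112 on the other strand and 91 with the microRNA gene Mir6990 on its own strand.

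Gabpa, the DNA-binding subunit of the factor GABP, was lower in KO in all 4 pairs of group means, by small amounts. In vehicle M, KO samples had 22.29, 22.69 and 22.79 CPM and WT samples had 24.83, 25.8 and 26.06 CPM. These did not overlap, whereas the ranges of the other 3 pairs did. KO samples ran from 18.88 to 25.07 CPM in vehicle F, from 22.85 to 29.03 in CP2 F and from 23.73 to 27.26 in CP2 M. The matching WT samples ran from 21.56 to 27.55, from 22.03 to 30.87 and from 24.64 to 30.4 CPM. The log2 change over the 4 pairs was -0.15 (SE 0.047, adjusted p = 0.0256), a fold of 0.903. Neither treatment alone gave a call, with log2 -0.17 (adjusted p = 0.133) for vehicle and -0.12 (adjusted p = 0.217) for CP2. Gabpa shares 397 exonic bases with Atp5j on the other strand.

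Nrf1, which binds the promoters of many respiratory chain genes as a dimer, did not follow Esrra and Gabpa. Its 18 KO samples ran from 12.79 to 19.66 CPM with a median of 16.0, against 13.77 to 17.94 CPM with a median of 16.12 in WT. The genotypes overlapped almost fully, and the log2 difference over the 4 pairs was 0.009 (95% interval -0.091 to 0.11). Within KO M, the CP2 samples (13.6, 14.63, 15.36, 15.58 and 15.88 CPM) lay below the vehicle samples (16.67, 17.46 and 18.2 CPM). That log2 difference was -0.22 (SE 0.106) with an adjusted p of 0.249.

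Within the mitochondrial transcription machinery, Polrmt, the RNA polymerase of mitochondria, was lower in KO in CP2 M. Its KO samples had 23.62, 23.75, 24.58, 25.73 and 27.64 CPM, and its WT samples had 28.26, 30.06, 32, 32.76 and 34.72 CPM. The 2 groups did not overlap, and the log2 change was -0.33 (SE 0.087, adjusted p = 0.0106), a fold of 0.794. With Pprc1 and Ppargc1b it made 3 of 10 regulators called lower in CP2 M, where 9.99% of genes were called and 5.24% were called lower. The Polrmt call was lost once the share of unannotated reads entered the fit (log2 -0.35, adjusted p = 0.0652) and without the 3 libraries that stood apart (log2 -0.30, adjusted p = 0.0934).

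Polrmt was not called in the other 3 pairs of groups. In CP2 F, KO samples ran from 23.39 to 31.3 CPM and WT samples from 24.9 to 27.71 CPM. In vehicle F, the ranges were 20.57 to 30.15 and 24.18 to 28.53 CPM, and in vehicle M 28.46 to 31.3 and 29.08 to 30.66 CPM. All 3 pairs overlapped, with log2 differences of 0.017 (SE 0.088), -0.016 (SE 0.088) and 0.004 (SE 0.113). The F minus M difference of the genotype effect with CP2 was 0.35 for Polrmt (adjusted p = 0.16) and 0.45 for Pprc1 (adjusted p = 0.131). Neither was called, in a comparison that called 0.820% of genes.

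Other measures moved with genotype in CP2 M. The share of reads outside genes ran from 5.18% to 9.06% in KO and from 9.05% to 13.2% in WT. The microglia markers summed to 215 to 265 CPM in KO and to 173.3 to 212.3 CPM in WT, with 3 of the 4 called higher (Csf1r, Cx3cr1 and P2ry12). The hippocampal CA markers summed to 322.8 to 398.2 CPM in KO and 280.7 to 324.8 CPM in WT, with Wfs1 alone of the 6 called, higher. Yet the mean log2 score of the same 6 genes, which weights each gene equally, ran lower in KO, from 4.85 to 5 against 5.02 to 5.16. Single markers of other types were called too: Gja1 (astrocytes), Mbp (oligodendrocytes) and Stmn2 (neurons) higher, each 1 of 4, and Dsp (dentate gyrus), 1 of 4, lower. With CP2 over both letters, Csf1r, P2ry12, Mbp, Stmn2 and Wfs1 were called higher and the interneuron gene Vip lower. None of these markers was at 0 in any sample. With the CA score as a covariate, Pprc1 stood at a log2 change of -0.64 (adjusted p = 0.000158) and Polrmt at -0.33 (adjusted p = 0.0162). The part of the other markers in the results with CP2 was not tested.

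Tfam, which packages mitochondrial DNA and opens its promoters, was not called by genotype over the 4 pairs (log2 0.019, 95% interval -0.050 to 0.089). Its highest levels were in KO CP2 F, at 33.62, 34.72, 36.2, 37.33 and 40.18 CPM. KO vehicle F samples had 28.84, 29.13, 30.35, 31.65 and 33.89 CPM, and WT CP2 F samples ran from 28.86 to 35.17 CPM. KO CP2 F thus lay mostly above both, with some overlap. In the KO F samples, CP2 against vehicle gave a log2 difference of 0.24 (SE 0.064, adjusted p = 0.104), which edgeR did not call and DESeq2 did (adjusted p = 0.0264). Between genotypes in CP2 F the log2 difference was 0.19 (SE 0.064, adjusted p = 0.104), and DESeq2 again called it (adjusted p = 0.031). In M, KO CP2 samples ran from 29.02 to 31.45 CPM and KO vehicle samples from 28.31 to 32.68 CPM, which overlapped.

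Tfb2m, which melts mitochondrial promoters together with Tfam and Polrmt, ran from 12.55 to 19.67 CPM in KO and from 12.82 to 19.53 CPM in WT. The genotypes overlapped fully, with a log2 difference over the 4 pairs of 0.010 (95% interval -0.098 to 0.12). Tfb1m, the ribosomal RNA methyltransferase, was the lowest and least precisely measured of the 10, with 142 to 420 counts per sample. In vehicle M its KO samples had 3.458, 3.997 and 4.145 CPM and its WT samples had 4.821, 4.822 and 4.88 CPM. These did not overlap, but the log2 difference of -0.32 (SE 0.212) had an adjusted p of 0.583. Over the 4 pairs it was -0.15 with an interval from -0.33 to 0.033, and Tfb1m shares 142 exonic bases with Tiam2 on the other strand.

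**Figure D3:**
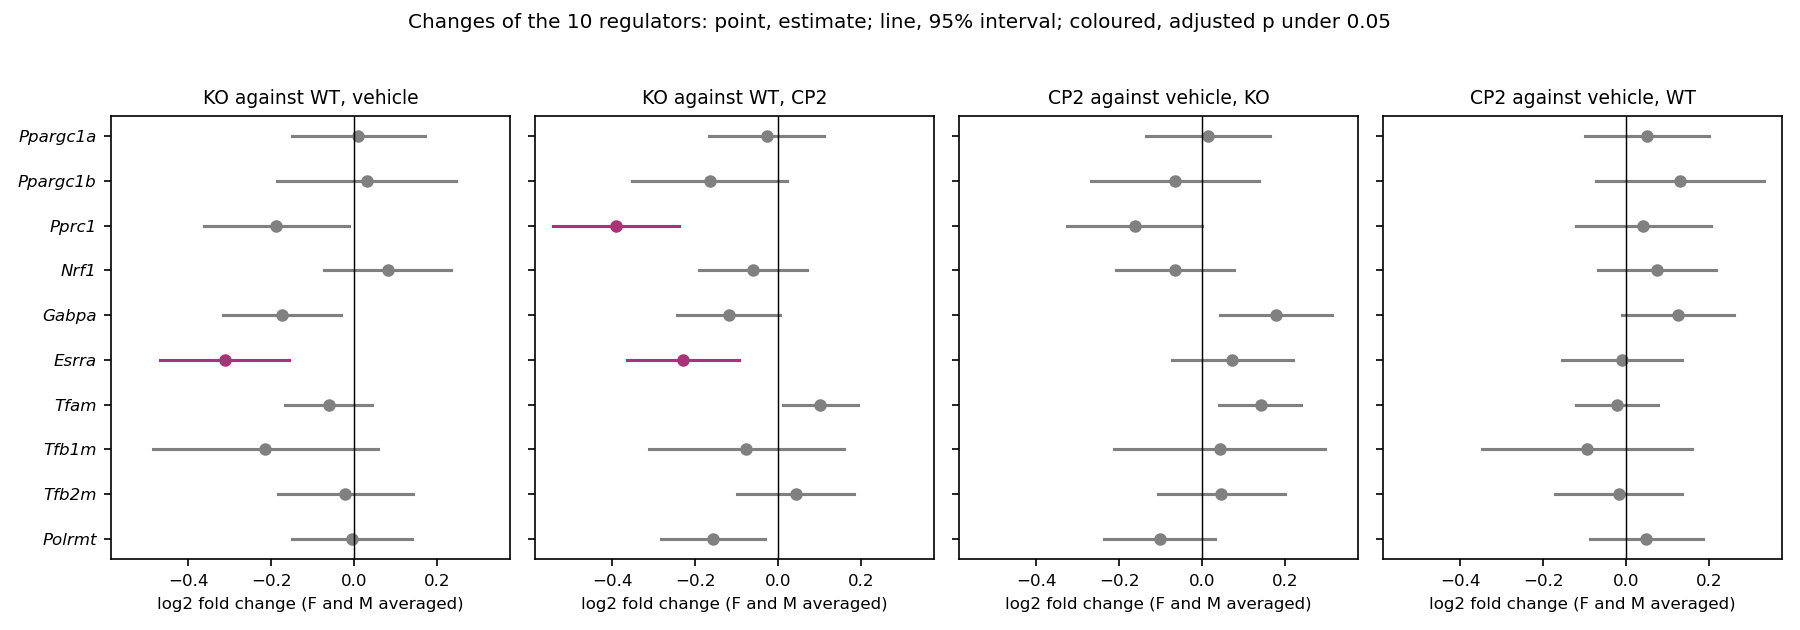
Log2 fold change (x axis) of the 10 regulators (rows) in 4 comparisons that average F and M; points are estimates, lines are 95% intervals, and coloured marks have an adjusted p under 0.05 in edgeR's quasi-likelihood test. Coloured marks are Esrra with vehicle (-0.31) and Esrra (-0.23) and Pprc1 (-0.39) with CP2, and none appear for CP2 against vehicle in either genotype.

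The second question was whether CP2 changed these genes within a genotype. In WT, 0 of the 10 regulators were called in F, in M or in their average, and 0 had an unadjusted p under 0.05 in the average. There, edgeR called 0% of all genes, and 4.03% had an unadjusted p under 0.05. In KO, 0 of 10 were called in the average, against 3.91% of all genes. An unadjusted p under 0.05 was seen for 2 of them and for 18.1% of all genes. They were Tfam (log2 0.14, SE 0.049, adjusted p = 0.0927) and Gabpa (log2 0.18, SE 0.067, adjusted p = 0.124). In KO F, 0 of 10 were called (background 0.0859%), and in KO M, 0 of 10 (background 5.10%). In KO M, the CP2 samples of Polrmt (23.62 to 27.64 CPM) lay below the vehicle samples (28.46 to 31.3 CPM) without overlap. That log2 difference was -0.26 (SE 0.1, adjusted p = 0.138). The genotype by CP2 interaction called 0 of 10 and 0.715% of all genes, and only Tfam had an unadjusted p under 0.05, against 14.6% of all genes (log2 0.16, SE 0.069, adjusted p = 0.251).

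Between the letters, averaged over the 4 genotype and treatment groups, 2 of 10 regulators were called, where 10.3% of genes were called. Tfam was lower in M (log2 -0.11, SE 0.034, adjusted p = 0.0376) and Polrmt was higher (log2 0.14, SE 0.047, adjusted p = 0.045). These genes of the same transcription complex differed in opposite directions, with folds of 0.928 and 1.1. Each call was lost in 5 of 8 alternative analyses. Without the 3 libraries that stood apart, the log2 changes were of like size, -0.11 (adjusted p = 0.0695) for Tfam and 0.14 (adjusted p = 0.0955) for Polrmt. The share of reads outside genes differed with the letter in WT, at 5.09% to 7.04% in vehicle F against 9.48% to 11.6% in vehicle M and 5.45% to 7.18% in CP2 F against 9.05% to 13.2% in CP2 M. In KO it ran from 6.19% to 11.7% in vehicle F against 11.3% to 13% in vehicle M, and from 5.83% to 11% in CP2 F against 5.18% to 9.06% in CP2 M. With this share in the fit, Tfam stood at log2 -0.063 (adjusted p = 0.667) and Polrmt at 0.16 (adjusted p = 0.332). The share of ENSMUSG00000119584 also ran with the letter, and its part in the results between letters was not tested. Polrmt kept its call in 9 of 36 fits that left out a sample, and Tfam in 28 of 36.

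Levels of the regulators were mostly unrelated across samples. Over the 45 pairs of these genes, the median Pearson correlation of log2 CPM across the 36 samples was 0.06, and 28 pairs were positive. Once group means were removed, the median was 0.04 and 24 pairs were positive. After adjustment over the 45 pairs, 1 had a Pearson permutation p under 0.05, Pprc1 and Polrmt. Their Pearson r was 0.606 (permutation p = 0.00011, adjusted 0.00495) and their Spearman rho 0.62 (permutation p = 7e-05, adjusted 0.00315). The Pearson r was 0.513 within F, 0.747 within M, 0.548 with group means removed and 0.606 without the 2 samples farthest from the median of Pprc1. Spearman's rho passed adjustment for 4 pairs in all. The permutations shuffled all 36 samples without regard to the 8 groups, so these p-values also carry differences between groups. No p-value was computed with group means removed. The samples share depth and tissue composition, so the correlation is a description. The longest transcripts of Polrmt and Pprc1 had a GC content of 60.5% and 55.9%, against 41.4% to 57.8% in the other regulators. The part of GC content in the correlation was not tested.

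**Figure D4:**
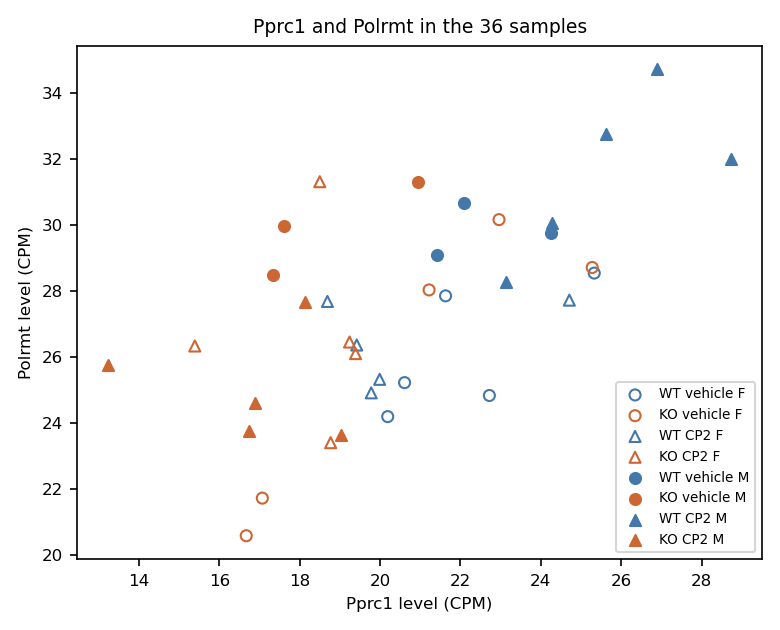
Level of Polrmt (CPM, y axis) against that of Pprc1 (CPM, x axis) in the 36 samples; blue is WT, orange is KO, circles are vehicle, triangles are CP2, and filled marks are M. Samples with more Pprc1 tend to have more Polrmt (r = 0.606 on log2 values), and KO CP2 M and WT CP2 M occupy separate ranges of both genes.

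Across the 36 samples, the gene among 15419 whose log2 CPM was most like that of Esrra was Tomm40l (r = 0.841), followed by Dnlz (0.825) and Rell2 (0.819). For Ppargc1a the most alike were Cnot6l (0.79) and Rab30 (0.744), and for Gabpa Pknox1 (0.787). Pprc1 was most like Ppig (0.769) and Polrmt most like Fuk (0.739). For Ppargc1b, Nrf1, Tfam, Tfb1m and Tfb2m the highest correlations were 0.652, 0.696, 0.712, 0.653 and 0.64. These samples share library depth and tissue make-up, which such values also carry.

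Among 16 nuclear factors that maintain and express mitochondrial DNA, 3 fell in KO with CP2 and 0 rose, where 11.6% of all genes were called and 6.07% were called lower. They were Polg, the mitochondrial DNA polymerase (log2 -0.38, adjusted p = 3.16e-06), Mgme1, a mitochondrial exonuclease (log2 -0.42, adjusted p = 0.00742), and Pnpt1, which degrades mitochondrial RNA (log2 -0.25, adjusted p = 0.0271). The list's median log2 change was -0.08, against 0.012 over all genes. With vehicle 0 of 16 were called, against 6.67% of all genes. Over the 4 pairs, 16.2% of all genes were called and 8.61% were called lower. There, Polg, Mgme1 and the helicase gene Twnk (log2 -0.24, adjusted p = 0.00608) were called lower. Polg was also lower with CP2 than with vehicle in KO (log2 -0.22, adjusted p = 0.0155).

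Among 23 partners, inputs and repressors of the coactivators and of GABP, calls went both ways. With vehicle, where 6.67% of all genes were called, the fatty acid receptor Ppara was lower in KO (log2 -0.76, SE 0.171, adjusted p = 0.00485), and the activity-regulated factors Mef2a (log2 0.22, adjusted p = 0.0209) and Mef2d (log2 0.19, adjusted p = 0.0389) were higher. With CP2, where 11.6% were called, Mef2a was again higher (log2 0.22, adjusted p = 0.00394), and Ppard (log2 -0.28) and Creb1 (log2 -0.17), a factor that acts on Ppargc1a, were lower. The median log2 change was 0.011 with vehicle and -0.05 with CP2, against 0.022 and 0.012 over all genes. The marker values given for Esrra with vehicle stand beside these calls as well.

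Of 16 textbook nuclear targets of NRF1, GABP or ERR alpha, 3 were called lower and 1 higher in KO with vehicle, where 6.67% of all genes were called and 3.80% were called lower. With vehicle, Tomm34, Cycs (cytochrome c) and Acadm (a fatty acid oxidation enzyme) were lower in KO, with log2 changes of -0.31, -0.29 and -0.22. Tomm20, a receptor of protein import, was higher, at 0.27, and the median was -0.077, against 0.022 over all genes. With CP2, where 11.6% of all genes were called, 4 were higher in KO, among them Tomm20 (log2 0.30, adjusted p = 7.88e-06), Cox4i1 (0.27) and Sdhb (0.17), and Tomm34 was lower (-0.19). The median there was 0.074, against 0.012 over all genes. With CP2 against vehicle in KO, 3 of 16 were called higher (Cox4i1, Uqcrfs1 and Acadm), where 3.91% of all genes were called. All 16 had a positive sign, and the median was 0.104, against 0 over all genes. The vehicle comparison and the CP2 comparison in KO share the KO vehicle samples. In M against F, where 10.3% of all genes were called, 9 of 16 were called lower, with a median of -0.12 against 0.001 over all genes.

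Of 4 neuronal genes known to depend on Ppargc1a, 1, Cplx1, was lower in KO with vehicle (log2 -0.19, adjusted p = 0.0481), where 6.67% of all genes were called. All 4 had a negative sign there, with a median of -0.38 against 0.022 over all genes. Pvalb, the calcium buffer of fast-firing interneurons, was higher with CP2 than with vehicle in KO (log2 0.63, SE 0.17, adjusted p = 0.0326), where 3.91% of all genes were called. Neither letter alone gave a call for Pvalb, with log2 1.04 (SE 0.221, adjusted p = 0.0526) in F and 0.21 (SE 0.255, adjusted p = 0.712) in M. The F minus M difference was 0.83 (SE 0.333, adjusted p = 0.226). Ppargc1a itself was called in neither comparison, with log2 differences of 0.009 and 0.013.

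Of the 13 messenger RNAs encoded in mitochondrial DNA, which this machinery makes, 4 were called higher in KO with CP2 and 0 lower, where 11.6% of all genes were called. They were mt-Nd6 (log2 0.48, SE 0.074), mt-Nd5 (0.38), mt-Co1 (0.31) and mt-Cytb (0.20), and the list's median was 0.19 against 0.012 over all genes. In CP2 M, where Polrmt was called lower, 5 of 13 were called higher against 9.99% of all genes called, and the median log2 change was 0.30 against 0 over all genes. With vehicle, mt-Nd2 was the only 1 called, lower by log2 -0.37 (adjusted p = 0.0039), and the median was 0.087 against 0.022 over all genes, of which 6.67% were called. In KO, CP2 against vehicle gave 3 called higher (mt-Cytb, mt-Nd4 and mt-Nd2), where 3.91% of all genes were called. All 13 had a positive sign, with a median of 0.25 against 0 over all genes. In M against F, 5 of 13 were called lower against 10.3% of all genes called, with a median of -0.18 against 0.001 over all genes. Tfam was called lower there and Polrmt higher, and each call was kept in only 3 of 8 alternative analyses. A link between these regulators and the messenger RNAs was not tested. The libraries were enriched for polyA RNA, and mt-Nd6 RNA is known to lack a long tail.

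**Figure D5:**
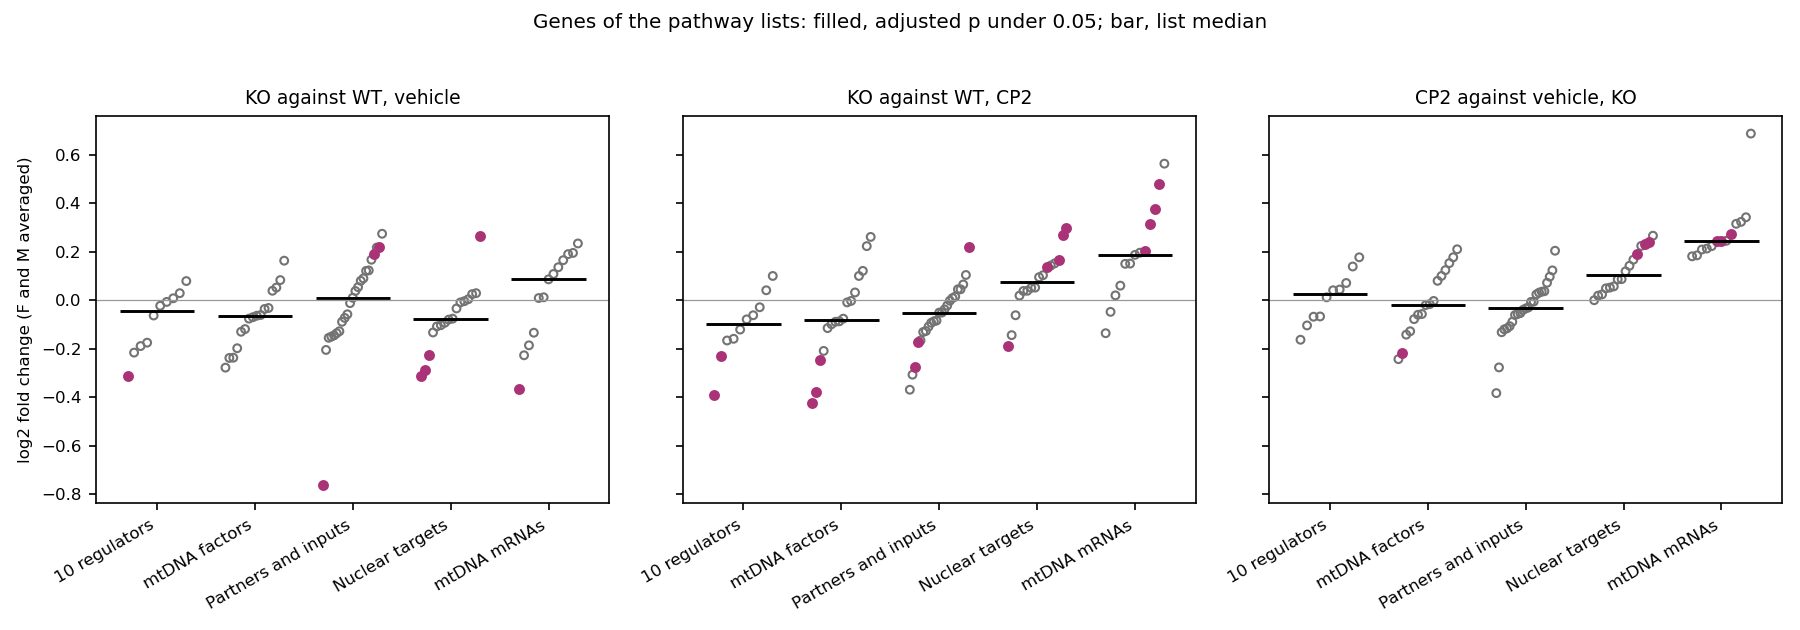
Log2 fold change (y axis) of each gene of the 10 regulators and of 4 pathway lists in 3 comparisons that average F and M; filled points have an adjusted p under 0.05, open points do not, and bars are list medians. With CP2 the median of the regulators lies at -0.099 and that of the mitochondrial DNA messenger RNAs at 0.19.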

How the data were processed

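The authors deposited raw read counts per Ensembl gene for 36 brain samples. Per the submitters' processing notes it was made with STAR and HTSeq on GRCm39. Tool versions, annotation release and strandedness are not given in the sources used here. Of its 56985 rows, 5 are summary lines, which held 12% to 19.6% of a sample's total and were left out. Symbols came from GENCODE M21 and matched 52073 of 56980 genes (91.4%). Exon lengths came from the same annotation.

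The counts were fitted with edgeR 4.0.16 in R 4.3.3 (TMM, filterByExpr on the 8 groups, robust glmQLFit, glmQLFTest). Each group had a coefficient, and averages weighted F and M equally. Benjamini-Hochberg adjustment ran over 25601 genes in each of 18 comparisons, with calls at an adjusted p under 0.05. Standard errors are the log2 change divided by the square root of F. Levels are CPM on TMM library sizes, and log2 CPM used a prior count of 2. Replicates were compared over 66 pairs of the same group, with a mean chi-square per gene of 13.5 to 143, and none was a repeat. The scripts were tested on simulated data. Correlations between the 45 pairs of regulators used 100000 permutations, two-sided, over all 36 samples and not within groups.

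Named genes were all 10 regulators, Ndufs4, at most 4 called genes with the smallest p from each list and comparison, and the 3 genes most like each regulator among those with a mean CPM of at least 1. Where more genes were called, the count is given. Not every gene that this rule gives is reported here. The members and lists were chosen with earlier results of these data known. 2 comparisons, KO against WT over the 4 pairs and the F minus M difference with CP2, and 2 alternatives, the GC offsets and the removal of 3 libraries, were added after seeing the data. Alternatives also included DESeq2 1.42.0, DESeq2 size factors, no low-count filter, covariates and leaving out each sample.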

Additional observations from a re-analysis of the deposited data

Results flagged for a closer look

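Within groups of 5 samples, 6 of the 60 sets of CPM values had 1 sample separated from the others by more than the 95% critical value of Dixon's test. Chance flags about 1 in 20 groups, or 5%. Pprc1 was lowest in KO CP2 F sample L233 at 15.39 CPM and highest in WT CP2 F sample L240 at 24.71 CPM. Gabpa was lowest in WT CP2 F sample L228 at 22.03 CPM, the sample in which Esrra was highest of all 36. Esrra was highest in KO CP2 F sample L216 at 56.89 CPM. Tfam was lowest in KO CP2 M sample L298 at 29.02 CPM. Tfb1m was lowest in KO CP2 F sample L201 at 2.48 CPM.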

How the results depend on the processing

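No paired analysis was possible because no sample number is shared between groups. The alternatives were run for the regulators only, and none of their called values changed sign. Among the called values, Pprc1 with CP2 (averaged and M) and Pprc1, Esrra and Gabpa over the 4 pairs were called throughout. The count of regulators called in M against F, 2 in the reported analysis, was 0 with no low-count filter, with the share of reads outside genes, the hippocampal CA score or the title number as a covariate, and without the 3 libraries that stood apart, 3 with GC offsets, which added Tfb2m, and 0 to 2 with a sample left out. KO against WT with vehicle, averaged, gave 0 with the share of reads outside genes, 2 with GC offsets and 0 to 1 with a sample left out (0 without KO vehicle M sample L322). KO against WT with CP2, averaged, gave 1 without the 3 libraries and 1 to 3 with a sample left out (1 without WT CP2 F sample L228). In CP2 M the count of 3 became 1 with the share of reads outside genes and 1 without the 3 libraries, and 4, Esrra being called as well, with the CA score, GC offsets, only the compared groups fitted or DESeq2. Counts of 0 became 1 in vehicle F with the CA score, in vehicle M with only the compared groups fitted, in CP2 against vehicle in KO with GC offsets, and with DESeq2 in CP2 F and in CP2 against vehicle in KO F. The causes were not tested. With 142 counts or more per sample in Tfb1m and 456 or more in the other regulators, the spread between samples, with 3 to 5 per group, limits precision more than counting does.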
